A study of Drosophila melanogaster with 5 samples.

Results

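The endpoints of a heat shock time course were compared: whole testes with no heat shock (no HS) and testes taken 32 h post heat shock (PHS). Genes were ranked by the difference of log2(CPM + 1), 32 h PHS minus no HS, where CPM is the number of reads of a gene scaled to the size of its library, with 1000000 as the nominal total. All 6728 genes with at least 10 CPM in one of these libraries were ranked, of 14819 genes in the table. At 32 h PHS, 156 of the ranked genes were lower by more than 2-fold (2.32%) and 78 were higher by more than 2-fold (1.16%). With a limit of 1 CPM, or none, 203 genes were lower and 197 higher, so the excess of lower genes depends on leaving out genes of low level. A gene low in no HS is ranked only where it is high at 32 h PHS, which bears on every count of higher genes and on the medians of spermatocyte lists. The lower end held genes of DNA replication, nucleotide supply and cell division together with genes best known from the egg and oocyte. The upper end held genes of spermatocytes, among them testis paralogs of general transcription, translation, proteasome and mitochondrial proteins, and genes known only by a number.

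All males carried hs-bam, an additional bam gene under a heat shock promoter, in the bam[1]/bam[86] mutant background, in which bam[86] is the deletion allele Δ86. They were raised at 25 °C to mid and late pupal stages, and the heat shock was 30 min at 37 °C. Libraries of polyA RNA from about 100 pairs of testes with seminal vesicles were made without heat shock and at 8, 16, 24 and 32 h PHS, 1 for each. The age at which the testes without heat shock were taken is not given in the sources used here. There is thus no replicate, and no difference has a test against variation between animals.

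In the testis, germ line stem cells give rise to spermatogonia, which divide a fixed number of times and then stop, replicate their DNA once more and grow as spermatocytes. Bam is a translational repressor needed for that switch, and in bam mutants spermatogonia continue to divide and do not become spermatocytes. Spermatocytes then turn on a large set of genes through testis forms of the transcription machinery, and store many of the mRNAs for later use. The heat shock promoter is not restricted to the germ line, and the labels describe the tissue as primarily germ cells, so somatic cells of the testis, sheath and seminal vesicle are included. The heat shock, Bam and any difference in pupal age cannot be told apart in this comparison, since no heat-shocked testes without hs-bam were analysed here. In RNA from whole tissue, fewer cells of a type and less RNA per cell also cannot be told apart.

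Reads on features numbered 10356663 in no HS and 23114650 at 32 h PHS, against 21461541 to 28766676 in the libraries between. A CPM was worth 10.3 reads in no HS and 23.7 at 32 h PHS, and 3 reads, the most that a count of 0 allows, were 0.292 and 0.127 CPM. Intervals given below are 95% Clopper-Pearson intervals of the log2 ratio of CPM from the reads of both libraries. They cover counting error only, because reads amplified by PCR and not tagged with molecular identifiers need not stand for separate molecules. They contain no pseudocount, so for genes near or under 1 CPM they can lie above the change on the log2(CPM + 1) scale, which understates the change of such genes. A number in brackets after a level or a pair of levels is the change on that scale. The mutant and transgenic bam was at 64.7 CPM with no HS, then 128 (8 h), 90.4 (16 h), 74.2 (24 h) and 60.5 (32 h PHS), so at the endpoint its level was within 2-fold of the start (change -0.10, interval -0.23 to 0.04). The count per gene does not separate the transgene from the mutant alleles. RNA of how, an RNA-binding protein of early germ cells, was at 226 CPM with no HS, then 106 (8 h), 113 (16 h), 122 (24 h) and 134 (32 h PHS), a change of -0.76 (interval -0.84 to -0.68) that is also within 2-fold. The paper detects How protein in somatic cyst cells and the testis sheath as well, so these levels need not come from germ cells alone.

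Over the ranked genes the median change was -0.00, with quartiles of -0.23 and 0.19, and 3367 genes were below 0 against 3361 above. Within 2-fold were 96.5% of them. The ends had different shapes. Genes of the lower end started from a median of 59.3 CPM and ended at 20.6 CPM, none was under 1 CPM at 32 h PHS, 11 were past 4-fold and 0 past 8-fold. Genes of the upper end went from a median of 6.82 to 33.7 CPM, 13 were under 1 CPM in no HS, 36 were past 4-fold, 22 past 8-fold and 9 past 16-fold. The interval lay wholly past 2-fold for 105 of the 156 lower and 60 of the 78 higher genes, and held 0 for none of either. At the border, cutlet (57.9 to 28.5 CPM) was the last gene counted as lower and Cdc6 (90.7 to 44.9 CPM, -0.998) the first left out, while mt:ND5 (29.5 to 60.2 CPM) was inside the upper end and Rpt3R (81.3 to 162 CPM, 0.98) outside it.

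**Figure D1:**
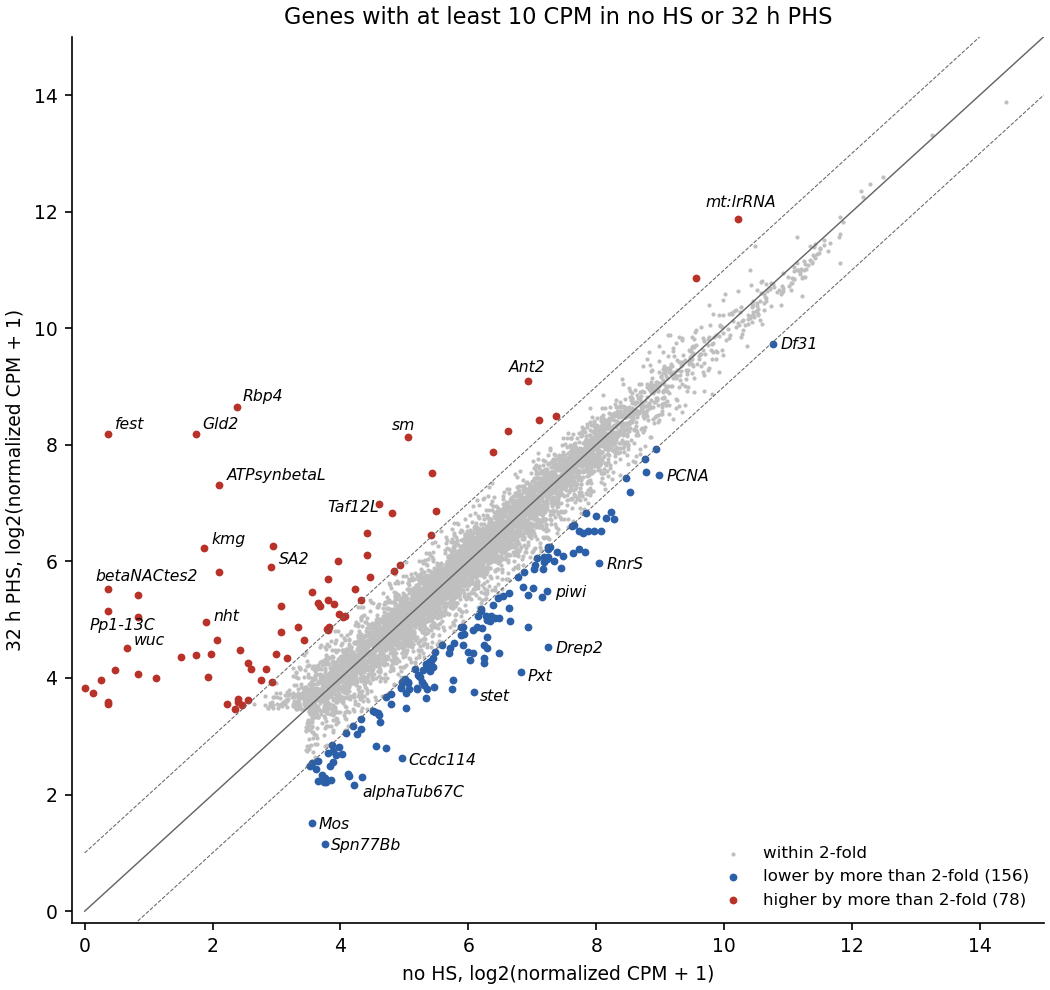
Level of each of the 6728 ranked genes in no HS (x axis) and at 32 h PHS (y axis), both as log2(normalized CPM + 1), with 1 library each. The solid line marks equal levels and the dashed lines 2-fold; the 156 lower genes (blue) lie close under the lower dashed line, while the 78 higher genes (red) lie above the upper one, many of them far to the left, where levels in no HS were near 0.

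The libraries at 8 and 24 h PHS had no part in the ranking, so the same genes were looked up in them. Between 8 and 24 h PHS, 85 of the 6728 genes (1.26%) were lower by more than 2-fold and 30 (0.446%) were higher by more than 2-fold. Of the 156 lower genes, 71 (45.5%) were past 2-fold in the same direction, 150 had the same sign and 0 were past 2-fold in the other direction, with a median change of -0.97. Of the 78 higher genes, 26 (33.3%) were past 2-fold in the same direction, 66 had the same sign and 0 were past 2-fold the other way, with a median of 0.73. Both shares lie above the shares of all genes. Spn77Bb, a serpin, was the 1 gene of the 25 largest decreases without the same sign: it was at 12.5 CPM with no HS, then 3.17 (8 h), 11.1 (16 h), 3.26 (24 h) and 1.22 (32 h PHS). Its level thus went up and down from library to library and its place near the lower end rests on the endpoints alone.

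**Figure D2:**
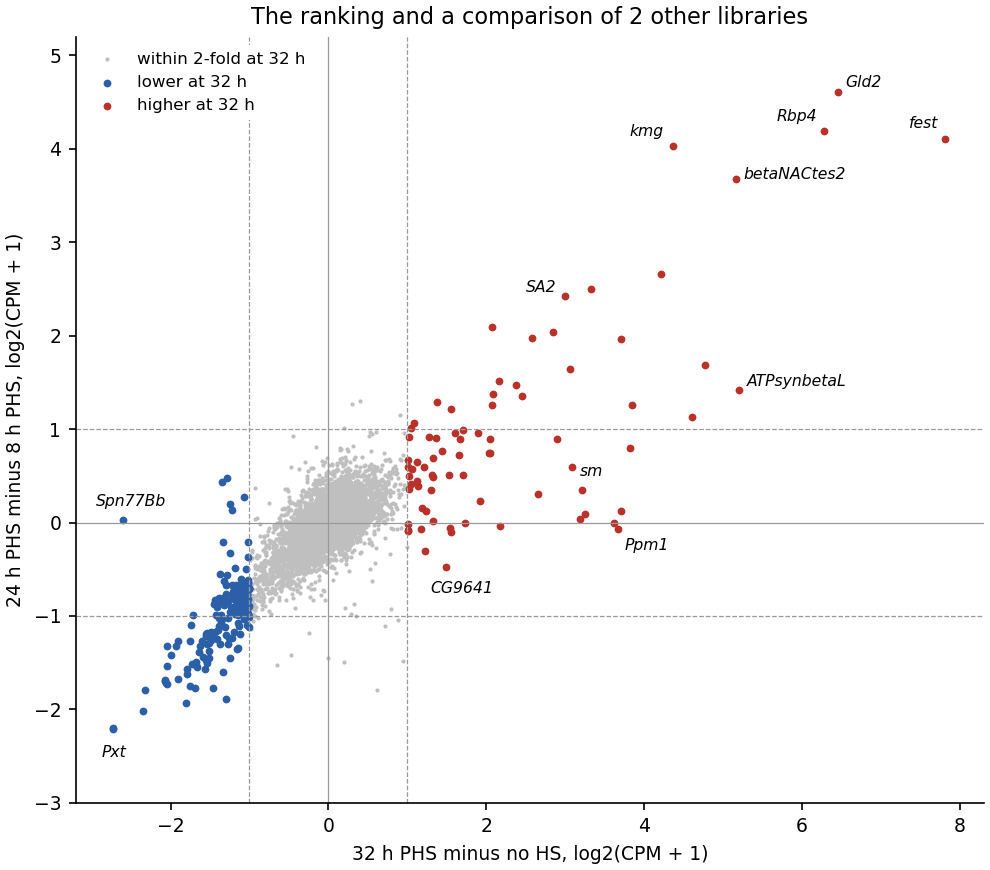
Change from no HS to 32 h PHS (x axis) against the change from 8 to 24 h PHS (y axis), both on the log2(CPM + 1) scale, for the 6728 ranked genes; dashed lines mark 2-fold. Blue points (lower at 32 h) fall below 0 on the y axis for 150 of 156 genes, and red points (higher at 32 h) lie above 0 for 66 of 78.

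Pxt (FBgn0261987, chromosome 3R from 17719454 to 17722955 on BDGP6.54), a cyclooxygenase-like peroxidase that acts in egg chamber development, had the largest decrease. It was at 112 CPM with no HS, then 112 (8 h), 48.9 (16 h), 23.5 (24 h) and 16.2 (32 h PHS), a change of -2.72 (interval -2.97 to -2.63). Its level was the same until 8 h and fell at each later time. Drep2 (FBgn0028408), a relative of the DNA fragmentation factors, had the same change of -2.72 but began earlier, with 151 CPM with no HS, then 72.3 (8 h), 22.4 (16 h), 15 (24 h) and 22 (32 h PHS). Its lowest level was at 24 h. stet (FBgn0020248), a rhomboid protease that releases EGF ligands from germ cells toward the enclosing somatic cells, fell from 66.9 CPM with no HS through 46.02 (8 h), 22.6 (16 h) and 12.5 (24 h) to 12.6 (32 h PHS) (change -2.32, interval -2.61 to -2.21).

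Pxt was 1 of 13 lower genes best known for roles in the egg, the eggshell or the oocyte. This grouping, like the other functional groups of the ends used below, was put together after the values had been seen and carries no test. It was drawn from the lower genes alone, so it gives no share of the measured egg and oocyte genes that fell. The ovary genes wisp and orb, for example, were within 2-fold, with changes of -0.73 and -0.45. The 13 genes fell by a median of 1.54 on the log2 scale, and 9 of the 13 were also lower by more than 2-fold from 8 to 24 h PHS. alphaTub67C, the maternal alpha-tubulin, fell from 17.6 to 3.46 CPM (-2.06) and Mos, a kinase of oocyte maturation, from 10.8 to 1.86 CPM (-2.05). gnu, a regulator of the first divisions of the embryo, was at 16.6 CPM with no HS, then 18.7 (8 h), 7.5 (16 h), 4.17 (24 h) and 4.01 (32 h PHS) (-1.81). yl, the yolk protein receptor, fell from 99.9 to 30.4 CPM (-1.69) and dhd, a thioredoxin of the egg, from 77.0 to 24.9 CPM (-1.59). The eggshell genes fs(1)N (39.7 to 13 CPM), fs(1)M3 (18.9 to 8.82 CPM) and ndl (41.3 to 16.4 CPM), the synaptonemal complex gene c(3)G (32.8 to 13 CPM) and the actin bundling gene qua (50.7 to 20.4 CPM) also fell. These RNAs came from testes. All were at or above 10 CPM in no HS, which the limit for ranking requires of any lower gene. ovo, a transcription factor of the germ line, stood apart in time. It was at 367 CPM with no HS, then 154 (8 h), 103 (16 h), 99.7 (24 h) and 145 (32 h PHS) (-1.33), so that its largest step came before 8 h, whereas 9 of the 13 genes had theirs between 8 and 16 h.

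The largest group of the lower end with a named function was DNA replication and the supply of nucleotides, with 29 genes and a median change of -1.40. Of these 22 were also past 2-fold from 8 to 24 h PHS, and 27 had their largest step between 16 and 24 h. RnrS (FBgn0011704), the small subunit of ribonucleotide reductase, was at 262 CPM with no HS, then 251 (8 h), 176 (16 h), 76.6 (24 h) and 61.4 (32 h PHS) (-2.07, interval -2.183 to -1.998). The large subunit RnrL fell from 178 to 66.9 CPM (-1.40). Thymidylate synthase (Ts) fell from 122 to 28.2 CPM (-2.07) and the deoxyribonucleoside kinase dnk from 141 to 41.1 CPM (-1.75), so the enzymes that make or salvage DNA precursors held 3 of the 25 largest decreases.

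A list of DNA replication genes was read against the same comparison. Of its 40 measured members 19 fell by more than 2-fold (2.32% over all ranked genes) and 0 rose. All 40 were below 0, with a median of -0.99 against -0.00 over all genes. All 6 subunits of the MCM helicase, which opens the DNA at origins, were past 2-fold. Mcm5 was at 227 CPM with no HS, then 252 (8 h), 171 (16 h), 87.0 (24 h) and 70.3 (32 h PHS) (-1.67). Its partners fell by 1.39 (Mcm3), 1.41 (dpa), 1.52 (Mcm2), 1.54 (Mcm6) and 1.68 (Mcm7) on the log2 scale. Mcm7 has 81.7% of its exonic bases in common with a gene on the opposite strand, and the strand setting of the read count is not given in the sources used here, so its value is uncertain. PCNA, the sliding clamp of the DNA polymerases, had the highest level of the list and fell from 504 to 178 CPM (-1.49). The licensing factor dup fell from 175 to 58.2 CPM (-1.57), the origin subunit Orc1 from 143 to 57.6 CPM (-1.29) and cyclin E (CycE) from 248 to 90.9 CPM (-1.44). Not all members moved as far. The clamp loader subunits RfC4, RfC38 and RfC3 had changes of -0.93, -0.62 and -0.51, the ligase DNAlig1 -0.60, and the GINS subunits Psf1, Psf2 and Psf3 -0.50, -0.47 and -0.48, and none of these is past 2-fold. From 8 to 24 h PHS the list had a median of -0.85, with 17 of 40 members lower by more than 2-fold and 0 higher.

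Genes of cell division formed a group of 16 with a smaller median change of -1.17, and 2 of them were past 2-fold from 8 to 24 h PHS. CycB, a mitotic cyclin whose translation is also regulated in spermatocytes, was at 199 CPM with no HS, then 193 (8 h), 162 (16 h), 84.9 (24 h) and 69.96 (32 h PHS) (-1.49, interval -1.60 to -1.41). The centromeric histone cid fell from 38.7 to 13.7 CPM (-1.43), the centralspindlin subunit tum from 221 to 89 CPM (-1.30), the condensin subunit Cap-G from 144 to 62.5 CPM (-1.19) and the kinase aurA from 82.4 to 37.3 CPM (-1.12). Both Cdc25 phosphatases fell, with stg at 59.3 and 28.2 CPM and twe, which is needed for meiosis, at 51.5 and 21.9 CPM. Over a list of 42 measured genes of mitosis and cytokinesis, 9 fell by more than 2-fold (2.32% over all ranked genes) and 0 rose. The median was -0.52, with 41 genes below 0. Cyclin A (CycA) had a change of -0.31, polo -0.42, Ndc80 -0.06 and Bub1 0.05.

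Chromatin and histone handling gave 9 genes of the lower end. Caf1-180, the large subunit of the assembly factor that deposits histones behind the replication fork, fell from 234 to 90.7 CPM (-1.36), and the histone chaperone asf1 from 150 to 66.5 CPM (-1.16). BigH1, a linker histone of the embryo and germ line, did not follow them in time. It was at 31.7 CPM with no HS, then 19.9 (8 h), 5.79 (16 h), 4.62 (24 h) and 12.3 (32 h PHS) (-1.30), so it was lowest at 24 h and partly back at the endpoint. Df31, a chromatin decondensation factor, was the most abundant gene of the lower end. It stayed near its start, at 1733 CPM with no HS, 1730 (8 h), 1771 (16 h) and 1493 (24 h), and was at 851 CPM at 32 h PHS (-1.02). Over 12 measured genes of histone variants and chromatin assembly 3 fell (2.32% over all ranked genes) and 0 rose, with a median of -0.47. The replication-independent histones His3.3A and His3.3B had changes of -0.43 and -0.28, and Hira, which deposits them, 0.09.

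Genes of early germ cells mostly lay below 0 but differed in the size of their change. In a list of 25 measured genes, 9 fell by more than 2-fold (2.32% over all ranked genes) and 0 rose by more than 2-fold. Below 0 were 22 and above 0 were 3, and the median was -0.64. Beside Pxt, Drep2, stet, ovo and BigH1, these were the germ line innexin zpg (161 to 63.5 CPM), the male sexual identity factor Phf7 (439 to 184 CPM), otu (53.7 to 23.3 CPM) and stai, which binds tubulin (229 to 112 CPM). The general germ line gene vas, a helicase, had 281 CPM at the start and 254 at the end (-0.15). The Bam partner bgcn had a change of -0.44. For mei-P26, which the paper describes as repressed by Bam, Bgcn and Tut, the change was -0.18. piwi, an Argonaute of the nucleus in germ line and somatic cells, was the gene of a piRNA list with the largest change at the lower end. It fell from 150 CPM with no HS through 114.6 (8 h), 69.2 (16 h) and 53.0 (24 h) to 44.1 (32 h PHS) (-1.74). zuc (72.7 to 34.7 CPM) and shu (196 to 96.8 CPM) fell by little more than 2-fold. The other 20 of the 23 measured genes of that list did not pass, with aub at 0.26, AGO3 at 0.33 and tud at 0.22, and the median was -0.17. Outside the list, moon (14.2 to 5.40 CPM, -1.25) and Oxp were grouped with piwi, zuc and shu at the lower end. The Notch receptor (N, 352 to 171 CPM), the repressor brk (40.8 to 18.4 CPM) and Sema2a (131 to 60.3 CPM) were the signalling genes of the lower end beside stet.

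Smaller groups completed the lower end. Genes of cilia were Ccdc114, which docks dynein arms (30.3 to 5.15 CPM, -2.35), Oseg2, an intraflagellar transport gene (77.6 to 21.8 CPM, -1.79), IFT52 (10.8 to 4.81 CPM) and the dynein heavy chain Dhc36C (88.4 to 31.8 CPM). The amylase genes Amy-d (59.3 to 22.6 CPM) and Amy-p (114 to 46.4 CPM) are near-identical neighbours, so their values are uncertain, and both had their largest step before 8 h and the opposite sign from 8 to 24 h PHS (0.43 and 0.47). Of the 156 genes 36 (23.1%) had only a CG or CR number, against 28.9% of all ranked genes, and 32 named genes fitted no group. Among the latter were the acyl-CoA synthetase bgm (64.4 to 18.9 CPM, -1.71) RhoGAP100F (88.0 to 20.5 CPM, -2.05) and Syn1, a syntrophin (25.3 to 5.995 CPM, -1.91). The RNA helicase gene Mov10 fell from 19.3 to 3.93 CPM (-2.04). Oxp, a relative of the heterochromatin protein Rhino that was grouped with the piRNA genes, fell from 53.0 to 14.7 CPM (-1.79). The genes with a number only that were among the 25 largest decreases were CG13690 (-1.99), CG4860 (-1.93), CG14545 (-1.91), CG7208 (-1.76) and CG7724 (-1.73), and each was lower at 16 h than at 8 h PHS. In all, 18 of the 156 share over 10% of their exonic bases with another annotated gene, among them Cdk2, mtSSB and Sodh2.

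The upper end was led by 3 genes of RNA regulation. fest (FBgn0034435, chromosome 2R from 19341809 to 19345754), which acts with Rbp4 on the translation of stored mRNA in spermatocytes, had the largest increase. It had 3 reads (0.29 CPM) in no HS, then 0.60 CPM (8 h), 0.71 (16 h), 26.5 (24 h) and 289 (32 h PHS), a change of 7.81 (interval 8.40 to 12.23). Gld2 (FBgn0038934, chromosome 3R from 22211824 to 22217415), a cytoplasmic poly(A) polymerase of spermatogenesis, was at 2.34 CPM with no HS, then 6.05 (8 h), 3.70 (16 h), 171 (24 h) and 290.4 (32 h PHS) (6.45, interval 6.38 to 7.60). Rbp4 (FBgn0010258), an RNA-binding protein of spermatocytes, rose from 4.19 to 399.6 CPM (6.27), the highest endpoint level among the 25 largest increases. All 3 were low through 16 h PHS and reached the same order of level at 32 h. sm, an hnRNP L protein, rose later, from 32.2 CPM with no HS through 28.8 (8 h), 31.3 (16 h) and 44.0 (24 h) to 281 CPM (32 h PHS) (3.09).

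Other RNA genes of the upper end started from higher levels. blanks, a double-stranded RNA-binding protein of the testis, rose from 97.8 to 300.1 CPM (1.61), nonA-l from 164 to 361 CPM (1.13) and orb2, a CPEB protein, from 18.9 to 39.5 CPM (1.03). The hairpin RNA genes hpRNA:CR18854 (42.1 to 182 CPM) and hpRNA:CR46342 (17.8 to 45.3 CPM), which can give rise to endogenous siRNAs, rose as well, though both overlap another gene. Of 14 measured genes in a list of spermatocyte RNA regulators 4 rose and 1 fell, against 1.16% and 2.32% of all ranked genes. The gene that fell was twe, the Cdc25 phosphatase named above with cell division, and not an RNA regulator. The median was 0.20, with bol, the homologue of human DAZ proteins, at -0.33 (24.4 to 19.2 CPM). The 4 that rose were fest, Gld2, Rbp4 and orb2, and from 8 to 24 h PHS the list had 3 members higher by more than 2-fold and a median of -0.05.

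Transcription and chromatin genes of spermatocytes formed a group of 10 with a median change of 2.47, and 6 of the 10 had their largest step after 24 h. kmg, a zinc finger protein that keeps promoters of other lineages silent in spermatocytes, was at 2.63 CPM with no HS, then 2.20 (8 h), 3.56 (16 h), 51.5 (24 h) and 73.8 (32 h PHS) (4.37, interval 4.27 to 5.42). wuc, the testis relative of lin-52, was at 0.58 CPM in no HS and 21.8 at 32 h PHS (3.85). nht, a testis TAF, was at 2.73 CPM with no HS, then 1.19 (8 h), 0.38 (16 h), 5.85 (24 h) and 30.2 (32 h PHS) (3.07), so it fell before it rose. The bromodomain genes tbrd-3 (1.17 to 15.1 CPM, 2.89) and tbrd-1 (4.38 to 21.3 CPM, 2.05), the homeobox gene OdsH (0.29 to 11 CPM, 3.22) and dany (14.7 to 33.1 CPM, 1.12) also rose. vis (15.8 to 32.6 CPM) lies just past 2-fold and its tandem duplicate achi (26 to 48.3 CPM, 0.87) just under, and reads of these near-identical copies cannot be assigned with certainty. In a list of 13 measured genes of spermatocyte transcription 5 rose (1.16% over all ranked genes), 0 fell and 12 were above 0, with a median of 0.87. From 8 to 24 h PHS its median was -0.00, with 3 higher and 1 lower. aly, a subunit of the tMAC complex that activates spermatocyte promoters, was at 26.3 CPM in no HS and 28.7 at 32 h PHS (0.12). topi, another subunit, had a change of 0.95 but took no straight path, from 18.3 CPM in no HS through 16.9, 8.35 and 5.43 at 8, 16 and 24 h to 36.2 CPM at 32 h PHS.

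**Figure D3:**
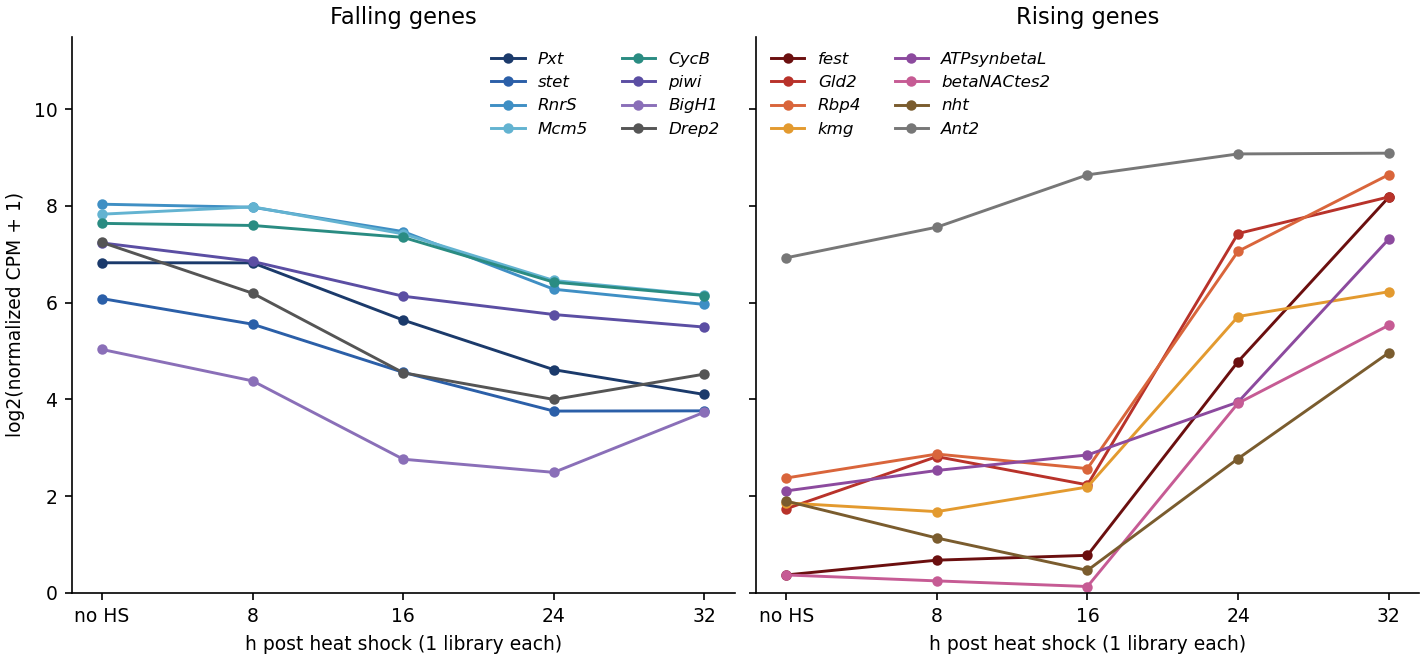
Level of 8 genes of the lower end (left) and 8 of the upper end (right) in the 5 libraries, in time order on the x axis and as log2(normalized CPM + 1) on the y axis, each point 1 library. RnrS, Mcm5 and CycB keep their level to 8 h and fall mostly between 16 and 24 h, while fest, Gld2, Rbp4 and kmg stay low to 16 h and rise from 24 h; Ant2 rises from the start.

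Many genes of the upper end are testis paralogs of genes used in other cells. A set of 18 such pairs, put together after the values had been seen, shows both members beside each other. Of the 18 general or ovary members 1 was lower by more than 2-fold (mip120, -1.01) and 0 higher, with a median of -0.20 and a range of -1.01 to 0.16. Of the 16 testis members with at least 10 CPM, 10 were higher, with a range of -0.24 to 6.45 over the 16. This count is no support for a shared rise, since the pairs were chosen with the values known and several testis members passed the limit of 10 CPM only through the 32 h library. ATPsynbetaL, the testis form of the beta subunit of ATP synthase, was at 3.31 CPM with no HS, then 4.78 (8 h), 6.22 (16 h), 14.4 (24 h) and 158 (32 h PHS) (5.204), while ATPsynbeta was at 568 and 619 CPM. Pp1-13C, a catalytic subunit of protein phosphatase 1, rose from 0.29 to 34.4 CPM (4.77), while Pp1-87B was at 796 and 755 CPM. The proteasome ATPase Rpt6R rose from 3.21 to 24.2 CPM (2.58), while Rpt6 was at 178 and 192 CPM. In each of these pairs the general member remained far above the testis member at 32 h PHS.

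SA2, a stromalin that holds homologous chromosomes together in male meiosis and is also named SNM, was at 6.52 CPM with no HS, then 9.56 (8 h), 14 (16 h), 55.5 (24 h) and 59.2 (32 h PHS) (3.00). Its paralog SA1, of general cohesin, was at 103 and 70.3 CPM (-0.55). Among the pairs of TFIID subunits, Taf12L rose from 26.9 to 113 CPM (2.03) with Taf12 at 75.1 and 56.5 CPM, and Taf4, the partner of nht, was at 290.1 and 265.7 CPM. Not all testis members rose. mia, the testis form of Taf6, had a change of -0.24, TfIIA-S-2 0.04, eIF4G2 0.13, eIF4E3 0.16 and tomb 0.78, and can and sa were under 10 CPM in both libraries.

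**Figure D4:**
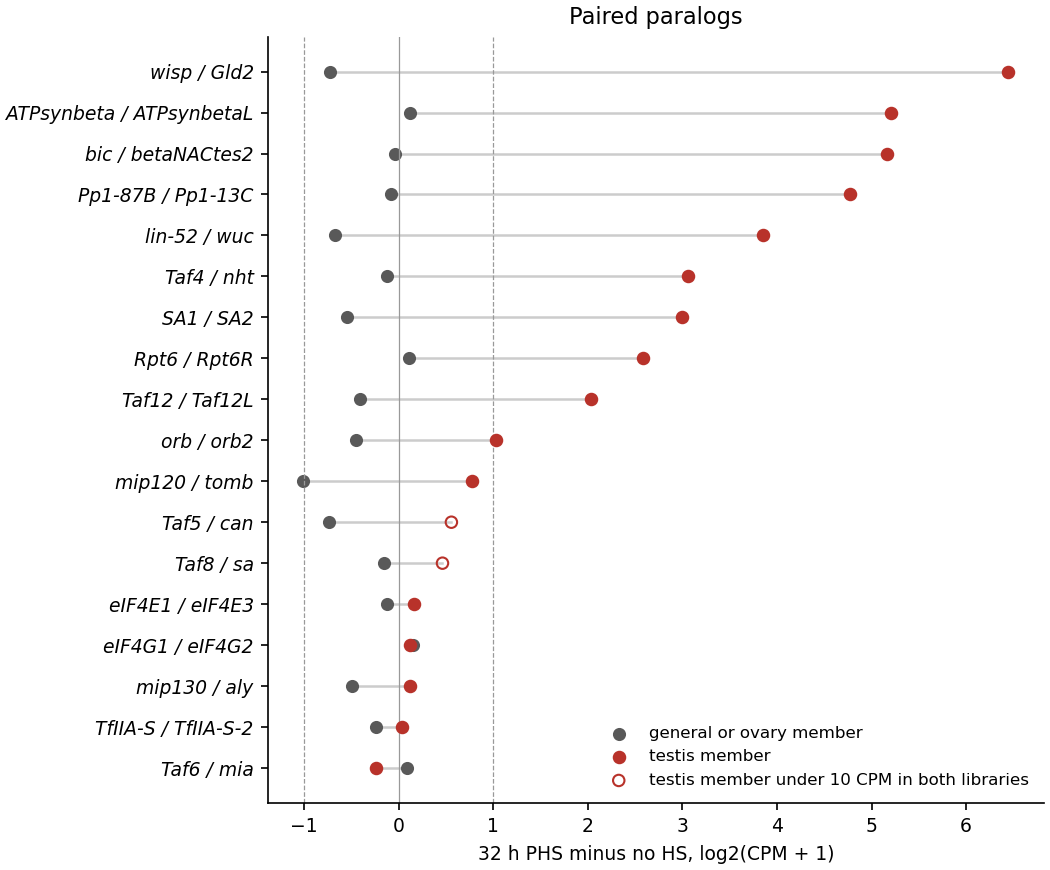
Change from no HS to 32 h PHS on the log2(CPM + 1) scale (x axis) for 18 pairs of a general or ovary gene (grey) and a testis gene (red, open where under 10 CPM in both libraries). All grey points but mip120 lie within 2-fold, and red points lie beyond 2-fold in the upper 10 pairs.

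The beta subunits of the nascent polypeptide associated complex, a chaperone at the ribosome, have several testis copies. betaNACtes2 was at 0.29 CPM (3 reads) with no HS, then 0.19 (8 h), 0.09 (16 h), 14.1 (24 h) and 45.3 (32 h PHS) (5.16, interval 5.72 to 9.56). betaNACtes4 rose from 6.72 to 76.3 CPM (3.32) and betaNACtes1 from 2.92 to 20.4 CPM (2.45), and all 3 were also past 2-fold from 8 to 24 h PHS. betaNACtes3 and betaNACtes6 had changes of 0.41 and 0.82, and bic, the general subunit, was at 1626 and 1587 CPM. Reads that fit several copies equally well would mostly be lost to the mapping quality limit, so levels of similar copies are uncertain. They were the 3 genes that rose among 15 measured paralogs of translation, where 0 fell and the median was 0.09.

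Mitochondrial genes rose in a different manner. Ant2, an ADP/ATP carrier, was at 121 CPM with no HS, then 188 (8 h), 399 (16 h), 539 (24 h) and 545 (32 h PHS) (2.16, interval 2.09 to 2.26). It thus rose from the first interval on, and its neighbour sesB, the other carrier, was at 524 and 369 CPM (-0.50). RNA from the mitochondrial genome was higher in every library after heat shock than in no HS: all 9 measured genes were above 0 at 32 h PHS, with a median of 0.82, and 2 of them were past 2-fold. mt:lrRNA was at 1188 CPM with no HS, then 2630 (8 h), 3112 (16 h), 4873 (24 h) and 3761 (32 h PHS) (1.66). The 65 measured nuclear genes of the respiratory chain had a median of 0.13, and ATPsynbetaL was the 1 that rose. In a list mainly of testis forms of respiratory and import genes, 18 of 21 in the table were under 10 CPM in both libraries. The 3 measured were ATPsynbetaL, Cyt-c1L (0.35) and cype (0.01), and cype is not a testis form. Spliceosomal RNAs, which normally carry no polyA tail, were also at the upper end although polyA RNA had been selected, with snRNA:U1:95Cc at 1.85 CPM with no HS, then 4.405 (8 h), 26.2 (16 h), 21.2 (24 h) and 19.5 (32 h PHS) (2.85). It reached its highest level at 16 h, as did snRNA:U11 (12.9 CPM with no HS, 28.6 at 16 h and 27.5 at 32 h PHS). The ribosomal RNA pseudogene 28SrRNA-Psi:CR41609 was also at the upper end and highest at 16 h (6.62 CPM with no HS, 31.4 at 16 h and 14.3 at 32 h PHS). The part of the polyA selection of each library in these levels was not tested.

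Of the 78 higher genes 36 (46.2%) had only a CG or CR number, against 28.9% of all ranked genes. dbf, a named gene that fitted no group, rose from 0.78 to 42.1 CPM (4.60). CG7213 rose from 0.78 to 32.0 CPM (4.21) and CG34384 from 3.31 to 55.4 CPM (3.71). CG44261 rose from 0.78 to 15.9 CPM (3.25), though it shares 34.5% of its exonic bases with another gene, and CG10887 from 2.34 to 20.1 CPM (2.66). CG15710 had 0 reads in no HS, 8 h and 16 h, 0.74 CPM at 24 h and 13.2 CPM at 32 h PHS. That endpoint level is 45.1-fold the limit of 3 reads, and the interval of its log2 ratio starts at 5.19 and has no upper bound. CG3491 (0.10 to 12.5 CPM), CG43052 (0.19 to 14.6 CPM) and CG5111 (0.29 to 10.8 CPM) were at or under 0.18 CPM at 24 h and had their increase in the last 8 h. Ppm1, a protein phosphatase, was read at a low level in each earlier library, at most 0.75 CPM, and rose to 16.7 CPM at 32 h PHS (3.67). CG9641 was 1 of the 12 higher genes without the same sign from 8 to 24 h PHS, with 82.4 CPM in no HS, 99.8 CPM at 8 h, 71.7 CPM at 24 h and 233 CPM at 32 h PHS. In other features the upper end had 26.9% of its genes on the X chromosome, against 18.1% of all ranked genes and 18.6% of the lower end. Genes without introns made up 19.2% of the upper end, 14.1% of the lower end and 7.76% of all ranked genes, and the median exonic length was 1704, 2327 and 2275 bases. The 15 such genes of the upper end included snRNA:U1:95Cc, snRNA:U11, 28SrRNA-Psi:CR41609, hpRNA:CR46342 and the mitochondrial mt:lrRNA and mt:ND5. The lower end held 155 protein-coding genes and 0 mitochondrial ones. Neither the order of these shares nor that of the lengths thus compares the ends on nuclear protein-coding genes alone. These shares are descriptions of these genes and were not tested.

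The ends also differed in when their change took place. By 24 h PHS the median lower gene had made 85.0% of its change and the median higher gene 47.6%. The largest step of the lower genes was before 8 h for 15, from 8 to 16 h for 47, from 16 to 24 h for 86 and after 24 h for 8. Among the higher genes it was before 8 h for 5, from 8 to 16 h for 4, from 16 to 24 h for 35 and after 24 h for 34. Within the lower end the egg and oocyte genes had a median of 99.1% by 24 h, replication genes 81.9% and cell division genes 75.2%. Within the upper end RNA genes had a median of 73.3% by 24 h and transcription and chromatin genes 27.9%.

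Most gene families lay between the ends. Of 88 measured cytoplasmic ribosomal proteins 0 fell and 0 rose, with a median of -0.19 and 78 below 0, and of 21 genes of the nucleolus and ribosome assembly 1 fell (NHP2, 255 to 108 CPM) with a median of -0.41. The 70 mitochondrial ribosomal proteins had a median of 0.14, with 0 past 2-fold. Of 34 proteasome genes 1 rose (Rpt6R), 31 were above 0 and the median was 0.20. Kinesins (15 measured, median -0.08), cytochrome P450 genes (14, median 0.06), glutathione S-transferases (17, median -0.01) and long noncoding RNAs (20, median -0.03) had 0 genes past 2-fold in either direction. Since 2.32% of all ranked genes were lower and 1.16% higher, a count of 0 in families of this size is near those shares. Of 7 tubulin genes 1 fell (alphaTub67C), and of 6 dynein chains 1 fell (Dhc36C) and 1 rose (Dhc62B, an axonemal heavy chain, 12.9 to 39.4 CPM). Among 13 measured genes of male meiotic chromosomes 1 rose (SA2), 1 fell (sunn, a cohesion gene, 35.6 to 13 CPM) and the median was -0.24. In a list of proteasome and nuclear transport paralogs, 1 of 6 measured genes rose (Rpt6R) and 1 fell (Pen, an importin alpha, 434 to 214 CPM).

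Genes of later germ cells were hardly present. Of 37 spermatid genes present, 34 were under 10 CPM in both libraries and the 3 measured (Mst85C, m-cup and nes) had changes of -0.39, 0.15 and 0.41. Of 8 Y-linked fertility genes 1 was measured, with a change of 0.51.

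Markers of other cell types were read in the same way. Of 25 measured genes of the muscle sheath 0 fell and 0 rose, with a median of 0.24 and a summed level of 4381 CPM in no HS and 5000.2 CPM at 32 h PHS. Cyst cell and hub genes had a median of -0.11, with 1 of 19 lower, namely piwi, which the germ line also expresses. The cyst cell genes tj (-0.09), eya (0.21) and zfh1 (114 to 64.7 CPM, -0.81) were all within 2-fold, with zfh1 the furthest from 0 of these. Accessory gland genes were summed at 3.12 and 2.66 CPM over 23 genes, so 0 of them was measured, and cuticle and Jonah or trypsin protease genes likewise had 0 measured members of 94 and 22. Fat body genes were summed at 913 and 972 CPM, with 0 of 7 past 2-fold and a median of -0.11. Blood cell genes (5 measured, median 0.01), pigment cell genes (3, median 0.06) and immune peptide genes (3, median -0.24) also had 0 past 2-fold. Of 4 genes of the seminal vesicle and duct 1 fell (Spn77Bb, -2.60), and of 3 midgut genes the 2 amylases fell, with a list median of -1.28. The part of these tissues in the other changes was not tested.

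Genes that answer to heat and to pupal age were also read. All 8 measured heat shock genes were above 0 at 32 h PHS, between 0.20 and 0.93, with a median of 0.41 and 0 past 2-fold, and their summed level was 7798 CPM in no HS and 10481 CPM at 32 h PHS. From 8 to 24 h PHS 3 of the 8 were lower by more than 2-fold, with a median of -0.21. Hsp23, a small heat shock protein, was at 424 CPM with no HS, then 2229 (8 h), 682 (16 h), 643 (24 h) and 652 (32 h PHS), and so was highest at 8 h. Hsp27, which had the largest of these values (0.93), started at 1435 CPM and ended at 2726 CPM. The part of the heat shock in the other changes was not tested. Ecdysone response genes had a median of 0.07 over 11 measured, genes of cell death -0.13 over 9 and basement membrane genes 0.11 over 14, each with 0 past 2-fold.

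**Figure D5:**
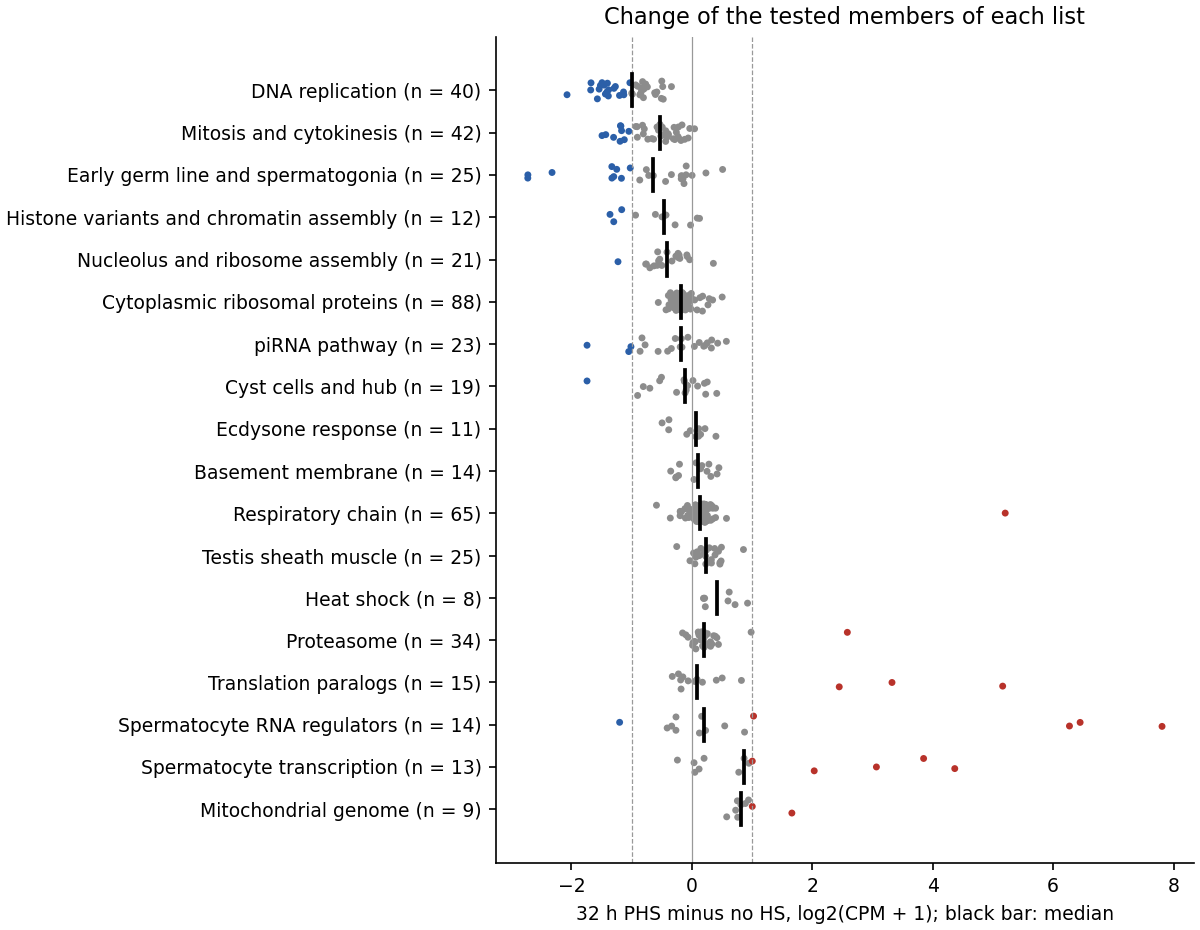
Change from no HS to 32 h PHS on the log2(CPM + 1) scale (x axis) for the measured members of 18 lists and families, with members lower (blue) or higher (red) by more than 2-fold coloured and the median as a black bar; vertical scatter within a row has no meaning. DNA replication has its median at -0.99 and all members below 0, ribosomal proteins and sheath muscle lie within 2-fold, and red points stand far to the right in the translation, RNA regulator and transcription lists.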

How the data were processed

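RNA-seq of whole testes with seminal vesicles was analysed, with 1 library for each of 5 conditions. The authors trimmed the paired 100 base reads (Trim Galore 0.4.3), aligned them to BDGP6.46 (STAR 2.5.3), kept proper pairs with a mapping quality of at least 10 (SAMtools 1.4.1), counted reads per gene (featureCounts of Subread 1.5.0) and scaled them to CPM by TMM (edgeR 3.34.0, R 4.1.0). In the deposited table each value is the log2 of that CPM after adding 1. The strand setting is not given in the sources used here, and near-identical copies lose most of their reads to the quality filter.

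The log2 was undone and 1 subtracted to return to CPM. All values (100%) were whole multiples of 1 read within 0.05 read, which gave reads, depth and intervals. With 1 library per condition no count model was fitted. The limit for ranking was 10 CPM in either endpoint library. Past 2-fold means a difference beyond 1 on log2(CPM + 1), and in the text "measured" members of a list are those above this limit. Steps were tested on simulated data. Alternatives were other pseudocounts, limits on low values, scalings, baselines, endpoints and thresholds, and none was added later.

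Genes named are the 25 largest changes at each end, members of the lists past 2-fold with some that are not, bam and how. Genes used to describe the ends beyond these, the functional groups of the ends and the paralog pairs were chosen after their values had been seen. The gene selection and the 27 lists and 23 symbol families were also chosen with earlier results of these data known. Of 597 listed symbols 36 matched no gene in the table. Positions and overlaps were read from the Ensembl GTF for BDGP6.54, which held 14797 of the 14819 genes, and no coordinates were converted. Sequences were not used here, and 1 gene of the lower end is not reported here. Python 3.11.15, numpy 2.4.6, pandas 2.3.3, scipy 1.17.1 and matplotlib 3.10.9 were used.

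The families not named in the report had few measured members past 2-fold. UDP-glycosyltransferases had 1 of 7 higher, serpins 2 of 7 lower, innexins 1 of 4 lower (zpg), mitochondrial carriers 1 of 12 higher (Ant2) and snRNAs 2 of 3 higher. The chaperonin CCT (8), odorant-binding proteins (3), metallothioneins (1) and snoRNAs (5) had 0.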

Additional observations from a re-analysis of the deposited data

How the results depend on the processing

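Each choice was changed alone. The 156 lower genes became 101 with a pseudocount of 5 CPM, 86 with at least 50 CPM, 474 at 1.5-fold and 31 at 3-fold. The 78 higher genes became 28 with at least 50 CPM, 258 at 1.5-fold and 44 at 3-fold. With at least 1 CPM or no limit on low values, 203 genes were lower and 197 higher. The excess of lower over higher genes (156 against 78) thus depends on leaving out genes of low level. It was also present with at least 50 CPM (86 against 28). Rescaling each library to a total of 1000000 gave 129 and 83, and the upper quartile 134 and 80. Taking no HS and 8 h together as the baseline, 137 and 72 were past 2-fold, of which 122 and 70 were shared with the genes above. Taking 24 and 32 h together as the endpoint the counts were 127 and 56, with 123 and 49 shared. From 8 to 24 h PHS, the 71 lower genes became 41 with at least 50 CPM, and the 26 higher genes became 16 with a pseudocount of 5 CPM and 12 with at least 50 CPM.

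Of 99 named genes, all kept their direction under these pseudocounts, scalings and the other baseline, and 98 with the other endpoint, where bam changed sign. This is no independent check, since 97 of the 99 were past 2-fold in these libraries and every setting keeps at least 1 of them. Of those 97, 87 stayed past 2-fold with a pseudocount of 5 CPM, 90 with the other baseline and 85 with the other endpoint. Rescaling to a total of 1000000 kept 93, as did the upper quartile. Medians of lists near 0 changed sign under some settings, among them fat body, blood cells, ecdysone response, cell death and long noncoding RNA. No paired analysis was possible because there is 1 library per condition. Counting limits genes under about 1 CPM in no HS most, since that library is the shallowest, and variation between animals is not covered by any interval given here.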

Other observations

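Under the limit of 10 CPM in both libraries lay 8091 genes, of which 119 were higher and 47 lower by more than 2-fold on the log2(CPM + 1) scale. Of these 55 and 20 had only a CG or CR number, and 21 of the 119 had 0 reads in no HS. The genes named here were chosen after their values had been seen. Among those that rose were further genes of spermatocyte transcription. comr, a tMAC subunit, had 0 reads in no HS and 16 h, 0.67 CPM at 24 h and 7.26 CPM at 32 h PHS (172 reads). That endpoint level is 24.9-fold the limit of 3 reads, and the interval of the log2 ratio starts at 4.32. tbrd-2, a bromodomain gene like tbrd-1 and tbrd-3, had 0 reads in no HS and at 24 h and 7.09 CPM at 32 h PHS. Its endpoint level is 24.3-fold the limit of 3 reads, with an interval that starts at 4.29. Testis paralogs appeared there too. The proteasome gene Rpn12R had 0.39 CPM at the start, 0.28 CPM at 24 h and 9.54 CPM at 32 h PHS. LS2, a splicing factor related to U2AF, was at 1.27, 0.60 and 7.18 CPM, and betaNACtes5, annotated as a pseudogene, at 0.49, 1.02 and 3.72 CPM at the same times. ocn, a janus family gene of the testis, was at 0.19, 0.18 and 3.00 CPM, and Cyt-c-d, the testis cytochrome c, at 1.17, 0.53 and 5.07 CPM.

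Among the genes under the limit that fell were genes known from female meiosis. mtrm, an inhibitor of polo in the oocyte, was at 8.28 CPM with no HS, then 7.80 (8 h), 3.80 (16 h), 2.94 (24 h) and 2.66 (32 h PHS) (-1.34). hdm, a recombination gene, was at 8.28 CPM with no HS, then 6.91 (8 h), 2.99 (16 h), 2.35 (24 h) and 2.20 (32 h PHS) (-1.54). Both followed the times of the egg and oocyte genes of the lower end. Dup99B, a peptide gene of the ejaculatory duct, was at 8.86 CPM with no HS, then 2.46 (8 h), 12.2 (16 h), 3.57 (24 h) and 0.63 (32 h PHS). Anp, an antibacterial peptide gene of the male duct, was at 4.67, 0.63, 4.79, 0.67 and 0.08 CPM at these times. Spn77Bc, beside Spn77Bb in name, was at 7.30, 3.21, 7.31, 1.96 and 1.44 CPM. These 3 genes and Spn77Bb were each higher in no HS and at 16 h than in the other 3 libraries, and the part of the amount of duct tissue in each library was not tested.

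Of 2709 transposon features 5 had at least 10 CPM in no HS or at 32 h PHS, of which 2 were lower by more than 2-fold and 0 higher. An insertion of HeT-A was at 15.5 and 6.97 CPM and one of 3S18 at 21.9 and 10.4 CPM.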
